A study of Mus musculus with 56 samples.

Results

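The 44 genes followed here encode working parts of the lysosome. They comprise 6 subunits of the membrane sector (V0) and 8 of the catalytic sector (V1) of the vacuolar proton pump with 2 accessory subunits. The others are 4 membrane proteins, 10 cathepsins, 6 glycosidases, 4 genes of lipid and sphingolipid breakdown, the hydrolase gene Tpp1 with the progranulin gene Grn, and the regulator Tfeb with the ion channel gene Mcoln1. They were taken by name, with earlier results of these data known. Shares set beside all genes thus describe the list and do not test it. Each matched 1 of the 55487 gene identifiers of the count tables for females and males, and 1 of the 55414 of the table for the surgery experiment. All 44 passed the filter on low counts in each table, among 18645, 17086 and 16961 genes tested.

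RNA of whole adrenal glands of C57BL/6J mice was sequenced in 56 libraries, in 14 groups of 4. Females of 6, 9 and 12 weeks and males of 4, 6 and 9 weeks were either labelled SF1-Cre+; Znrf3 Fx/Fx, called cKO below, or were littermates labelled SF1-Cre negative, called controls. SF1-Cre cuts floxed Znrf3 in cells that express SF1, the steroid-producing cells of the adrenal cortex, and SF1 is also made in the gonads. The other 8 libraries came from males of 9 weeks, castrated or sham-operated at week 4, and all carried the deletion, with reporter alleles that differed between samples. The labels give all 4 sham-operated samples the same replicate number, 1, so replicates 1 to 4 of that group are names in accession order, and p-values of the surgery comparison measure the spread between these libraries. Among castrated males the reporters were R26eYFP/WT in replicate 1, none in replicate 2 and R26mTmG/mTmG in replicates 3 and 4, and among sham-operated males R26eYFP/WT in replicates 1 and 4, R26mTmG/WT in replicate 2 and none in replicate 3. The surgery comparison thus has the deletion in both groups, and the labels of controls give the Cre status only. According to the series' design text, the study asked what accompanies the switch from growth to regression of cKO glands.

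Lysosomes are acid compartments in which proteins, glycans and lipids from outside the cell or from autophagy are broken down. The vacuolar proton pump (V-ATPase) uses ATP hydrolysed in its V1 sector to move protons through V0, and the acid activates cathepsins, which are proteases, and the glycosidases and lipases. TFEB is a transcription factor that binds the letters CACGTG in promoters of many lysosomal genes. In steroid-producing cells the acid lipase LIPA frees cholesterol from lipoproteins taken up, and macrophages have many lysosomes, rich in cathepsins such as cathepsin S.

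The targeted gene Znrf3 was at 40.4, 33.5, 36.5 and 35.9 CPM (counts scaled to library size, here TMM-normalised) in female controls of 6 weeks and at 101, 82.5, 67.9 and 55.6 CPM in libraries labelled cKO, that is higher and not lower (log2 fold change 1.07 ± 0.13, approximate standard error, n = 4 per group, adjusted p = 1.21e-06). It was also higher in libraries labelled cKO at each other age, with a log2 fold change from 0.49 to 1.13, in every one of 6 comparisons with no overlap. A count over the whole gene cannot show which exons were removed, so it checks neither the deletion nor the labels, and "cKO" below means so labelled. Libraries held 35694264 to 51604620 counts in females, 12431963 to 35531016 in males and 25145519 to 42411447 in the surgery experiment. In males, library numbers in the labels fell into ranges up to 24 and above 24 that overlap with genotype: at 6 weeks all controls lay above 24 and all cKO libraries below, so genotype and library number cannot be told apart there by the 2 groups alone. Sham replicate 1 stood apart, with 6.09% of its counts on identifiers without a symbol, against 0.153 to 1.03% in the other 7 libraries of that experiment, and results of castration are given with and without it where it matters. Transcripts of liver were found in some cKO libraries. The summed level of 6 liver markers reached 356 CPM in cKO replicate 2 of females of 12 weeks. In males of 4 weeks cKO replicate 2 held 107 CPM. The labelled tissue was checked with 10 cortex markers, which summed to 29800 to 81900 CPM over all libraries, and none of them was at 0 in any library. Exons of Ctsd, Ctsl and Glb1 overlap Gm49369, Gm49230 and Tmppe on the same strand. Those of 11 members overlap a gene on the opposite strand: Atp6v0a2, Atp6v0b, Atp6v1e1, Atp6v1h, Lamp1, Ctsa, Ctsb, Ctsl, Ctsz, Hexa and Grn. Counts of all these members thus depend on how shared reads were assigned, which the sources used here do not give.

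A letter pattern that the choice of genes did not use was found in a part of their promoters. Of the 44 genes, 36 had an entry among RefSeq promoters (GRCm38.p6, 250 bases before to 50 after a start site). Of these, 13 (36.1%) held CACGTG, which reads the same on both strands, against 8.09% of 27025 genes and 7.15% of 32851 promoters of the same length. Among the other lysosomal genes listed below, 7 of 41 (17.1%) held it. The 13 members with it were Ctsa, Ctsd, Ctsf, Ctsl, Gla, Glb1, Gaa, Lamp1, Mcoln1, Atp6v0b, Atp6v0d1, Atp6v0e and Atp6v1a. A match is a run of letters, not a measured binding site. Shown are 5 promoters whose genes carry results below. In 4 of them the pattern occurs more than 1 time, as it also does in those of Atp6v0b and Mcoln1, which are not shown. Ctsl, with a single copy far upstream, was called lower in cKO females and higher in cKO males of 9 weeks. Capitals mark CACGTG, the run is 5′ to 3′ on the gene's strand, and positions count from the start site to the first letter of the pattern:
Ctsa (chr2:164833523-164833822, plus strand, second of 2 start sites, copies at -12 and +6): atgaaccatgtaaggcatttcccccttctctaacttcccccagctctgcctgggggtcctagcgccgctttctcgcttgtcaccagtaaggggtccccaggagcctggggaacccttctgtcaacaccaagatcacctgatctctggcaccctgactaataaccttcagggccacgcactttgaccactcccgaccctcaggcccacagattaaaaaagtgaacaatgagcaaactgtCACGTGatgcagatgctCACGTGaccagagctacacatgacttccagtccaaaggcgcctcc
Ctsd (chr7:142387778-142388077, minus strand, copies at -245 and -98): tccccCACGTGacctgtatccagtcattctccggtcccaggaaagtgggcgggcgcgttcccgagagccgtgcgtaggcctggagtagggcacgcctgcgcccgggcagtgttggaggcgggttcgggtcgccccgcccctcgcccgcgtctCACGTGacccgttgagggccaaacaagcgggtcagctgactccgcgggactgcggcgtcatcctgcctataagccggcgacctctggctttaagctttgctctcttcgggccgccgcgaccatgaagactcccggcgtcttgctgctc
Gla (chrX:134600956-134601255, minus strand, copies at -227 and -194): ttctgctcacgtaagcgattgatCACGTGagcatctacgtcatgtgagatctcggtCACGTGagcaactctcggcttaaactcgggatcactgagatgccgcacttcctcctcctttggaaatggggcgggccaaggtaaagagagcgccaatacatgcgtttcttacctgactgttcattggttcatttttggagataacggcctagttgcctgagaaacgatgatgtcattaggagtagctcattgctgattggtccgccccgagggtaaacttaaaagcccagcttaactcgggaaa
Lamp1 (chr8:13158911-13159210, plus strand, copies at -61, -45, -28 and -15): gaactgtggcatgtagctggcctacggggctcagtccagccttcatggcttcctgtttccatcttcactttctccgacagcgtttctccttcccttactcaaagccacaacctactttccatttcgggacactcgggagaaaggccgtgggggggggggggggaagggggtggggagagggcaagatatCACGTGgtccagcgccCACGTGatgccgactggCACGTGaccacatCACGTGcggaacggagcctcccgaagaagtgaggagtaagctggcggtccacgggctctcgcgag
Ctsl (chr13:64370471-64370770, minus strand, copy at -236): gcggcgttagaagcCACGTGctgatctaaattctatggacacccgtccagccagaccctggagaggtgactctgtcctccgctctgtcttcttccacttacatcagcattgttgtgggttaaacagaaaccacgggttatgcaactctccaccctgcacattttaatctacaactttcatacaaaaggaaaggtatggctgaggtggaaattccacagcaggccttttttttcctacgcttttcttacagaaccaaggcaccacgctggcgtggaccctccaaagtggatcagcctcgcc

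Calls were counted for genes with and without the pattern, and the difference between them was not tested. Among the 13 with it 3, 2 and 4 were called higher in cKO females of 6, 9 and 12 weeks, and among the 23 without it 7, 7 and 9, against 14.2%, 14.6% and 9.11% of all genes. In males the counts were 1 and 0 at 4 weeks and 2 and 7 at 6 weeks, against 6.29% and 8.19%. In males at 9 weeks, 5 of the 13 with it were called higher and 2 lower in cKO glands (median log2 fold change 0.11), beside 10 and 2 of the 23 without it (median 0.35), against 10.4% and 13.6% of all genes. From 4 to 9 weeks in males the genotype effect moved upwards for 3 of the 13 with the pattern and 1 of the 23 without it, against 2.94%. After castration 0 were higher and 4 lower with the pattern and 4 were higher and 7 lower without it (medians -0.09 and -0.18), against 19.8% and 23.8% of all genes.

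Together the 44 genes took a mean of 0.894 to 0.998% of all counts in the 6 control groups, and a higher mean share in the cKO group of each age. Their share was 0.954% ± 0.0284 in control females of 6 weeks (mean ± SD, n = 4) and 1.06% ± 0.0788 in cKO glands, and 0.998% ± 0.0147 and 1.19% ± 0.0557 at 12 weeks, where the lowest cKO library (1.14%) lay above the highest control (1.01%). In males it was 0.894% ± 0.0355 and 0.931% ± 0.0444 at 4 weeks, 0.903% ± 0.0486 and 1.25% ± 0.198 at 6 weeks, and 0.93% ± 0.0543 and 1.37% ± 0.411 at 9 weeks. Castrated cKO glands were at 0.971% ± 0.0452 and sham-operated ones at 1.42% ± 0.327, of which sham replicate 1 held 0.945%. These are shares of RNA in a whole gland, so more cells of a type and more RNA per cell cannot be told apart. Cathepsins alone took 0.307% ± 0.0281 and 0.562% ± 0.23 of counts in control and cKO males of 9 weeks, and the proton pump 0.217% ± 0.00898 and 0.227% ± 0.018.

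Per kilobase of exon, the most abundant members in control females of 6 weeks were Psap (433 CPM per kb), which encodes the precursor of the saposins, and the protease genes Ctsb (271) and Ctsd (251), followed by Lamp1 (210), a main glycoprotein of the lysosomal membrane. At the low end were Tfeb (3.06), Ctsc (4.84), Gla (5.1) and Mcoln1 (5.79 CPM per kb). Within the pump, levels per kb ran from 13.6 for Atp6v1c1 to 94.1 for Atp6v1g1 in the same glands. In control males of 6 weeks Psap (466 CPM per kb), Ctsb (230), Lamp1 (215) and Ctsd (214) were again on top.

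In females, more members were higher than lower in cKO glands at each age by edgeR's quasi-likelihood test (adjusted p under 0.05 by Benjamini-Hochberg over all genes). At 6 weeks 13 of 44 were higher, where 14.2% of all tested genes were, and 5 were lower, where 19.1% were (median log2 fold change of the 44 0.08, of all genes 0.01). At 9 weeks 12 were higher and 4 lower, against 14.6% and 20% of all genes (medians 0.11 and -0.02). At 12 weeks 18 were higher (40.9%) and 3 lower (6.82%), against 9.11% and 16% of all genes (medians 0.18 and -0.01).

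In males fewer members were called at 4 weeks than later. At 4 weeks 2 were higher and 2 lower, against 6.29% and 12.9% of all genes. At 6 weeks 10 were higher (22.7%) and 0 lower, against 8.19% and 11.9% of all genes, with 1 lower at an unadjusted p under 0.05 and 0 by DESeq2. At 9 weeks 16 were higher (36.4%) and 4 lower, against 10.4% and 13.6% of all genes (medians 0.12 and -0.01). With library numbers up to 24 only (2 against 2), 2 were higher and 2 lower at 9 weeks, against 225 and 826 of 17464 genes. With those above 24, 16 were higher and 0 lower, against 1399 and 1532 of 17580 genes. With a covariate for library number range, 6 members were higher at 6 weeks, against 488 of 17086 genes. Neither a higher nor a lower member was left at 4 weeks, against 230 and 1471 genes. Without single libraries the higher count at 4 weeks was 6 (without control replicate 1) or 4 (without cKO replicate 1), and the lower count was 1 if control replicate 1 or cKO replicate 3 was left out and 0 for each of the other 6. Lower counts at 9 weeks moved to 2 without control replicate 1 and to 1 without cKO replicate 3 in males, and in females of 9 weeks to 2 without control replicate 3 or cKO replicate 1 and to 1 without cKO replicate 2.

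After castration 6 of 10 cathepsins were lower and 1 higher, and 4 of 16 pump genes were higher and 1 lower. Of the 44 members 12 were lower (27.3%) and 6 higher (13.6%) in castrated than in sham-operated cKO glands, against 23.8% and 19.8% of all 16961 genes (medians -0.07 and -0.01). Those shares are near the background, so what follows is about which members moved. Without sham replicate 1, 17 were lower and 8 higher, and each of the 18 calls was kept. Calls over all genes in that fit are not given here, so the larger counts are not read as a result about the members. The log2 fold change without it was -2.59 (adjusted p = 2.1e-06) for Ctss, -1.15 (adjusted p = 1.98e-05) for Ctsd, -1.23 (adjusted p = 2.65e-05) for Psap and 1 (adjusted p = 1.46e-05) for Atp6v1h.

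**Figure D1:**
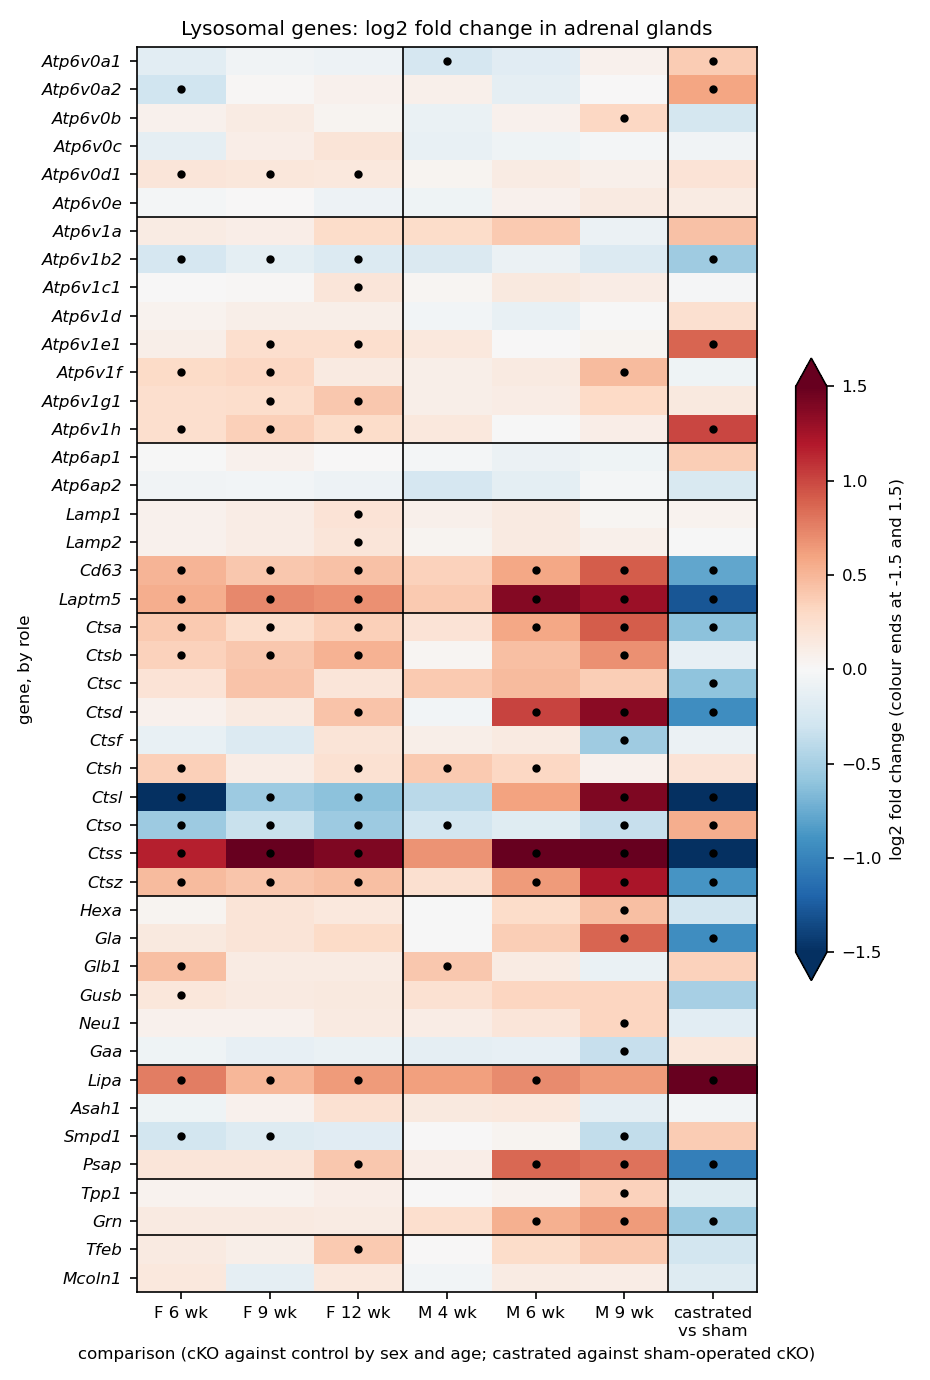
Log2 fold change of the 44 genes (rows, by role, separated by lines) in cKO against control glands by sex (F, M) and age and in castrated against sham-operated cKO males (columns), 4 libraries per group. Red is higher, blue is lower, and dots mark genes that passed edgeR's test at an adjusted p under 0.05. Ctss, Laptm5 and Cd63 are red in cKO glands and blue after castration, Lipa is red in all 7 columns, and Ctsl is blue in females and red in males of 9 weeks.

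Markers of other cells moved beside these results. For each comparison, the shares of all genes called are those given above for the members. The summed level of 20 macrophage markers, none at 0 in any library, was 637 to 809 CPM in control males of 9 weeks and 1280 to 5690 CPM in cKO glands, with 16 of 20 higher and 0 lower. In males of 6 weeks it was 551 to 641 and 1030 to 2720 CPM (14 higher, 1 lower), in those of 4 weeks 371 to 565 and 398 to 955 CPM (2 higher, 1 lower). In females the ranges were 396 to 673 and 656 to 1510 CPM at 6 weeks (10 higher, 1 lower), 440 to 548 and 696 to 1290 CPM at 9 weeks (13 higher, 0 lower), and 534 to 816 and 1210 to 1970 CPM at 12 weeks (10 higher, 0 lower). Sham-operated glands held 1970 to 3620 CPM and castrated ones 636 to 975 CPM (0 higher, 17 lower of 20). Their part in the results for Ctss, Ctsz, Ctsd, Ctsa, Laptm5, Cd63, Psap, Grn and Gla was not tested.

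Markers of medulla differed by genotype too, and those of cortex mainly after castration. The 12 chromaffin markers summed to 4170 to 5510 CPM in control females of 6 weeks and 283 to 538 CPM in cKO glands, with all 12 lower at each female age and 11 or 12 lower at each male age. Of the 10 cortex markers, 2 were higher and 2 lower in cKO females of 6 and of 9 weeks, and 2 and 0 at 12 weeks. All genes were at 14.2% and 19.1%, 14.6% and 20%, and 9.11% and 16%, so the counts at 6 and 9 weeks were near the background. In males 2 cortex markers were higher and 0 lower at 4 weeks, 0 and 3 at 6 weeks and 0 and 2 at 9 weeks. There all genes were at 6.29% and 12.9%, 8.19% and 11.9%, and 10.4% and 13.6%. After castration the 10 cortex markers summed to 71500 to 81900 CPM, against 29800 to 42300 CPM in sham-operated glands (6 higher, 1 lower). All 12 chromaffin markers and 7 of 8 endothelial markers were lower, where 19.8% of all genes were higher and 23.8% lower. The part of these markers in the rise of Lipa, Atp6v1h and Atp6v1e1 was not tested. Of the 8 endothelial markers, 7 were lower and 1 higher in cKO females of 6 and of 9 weeks, and 3 lower and 1 higher at 12 weeks. In males 1 was lower at 4 weeks, 6 were higher at 6 weeks and 3 at 9 weeks. The genotype effect on endothelial markers was lower in females than in males for 7 of 8 at 6 weeks and 5 of 8 at 9 weeks. The shares of all genes were 5.08% and 5.39%. At these ages the effect on Ctsl was lower too, and the part of endothelial markers in it was not tested. Library by library, cKO replicate 4 of females of 6 weeks had the highest macrophage sum of its group (1510 CPM) and the highest Ctss, and cKO replicate 4 of males of 9 weeks (5690 CPM) likewise.

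**Figure D2:**
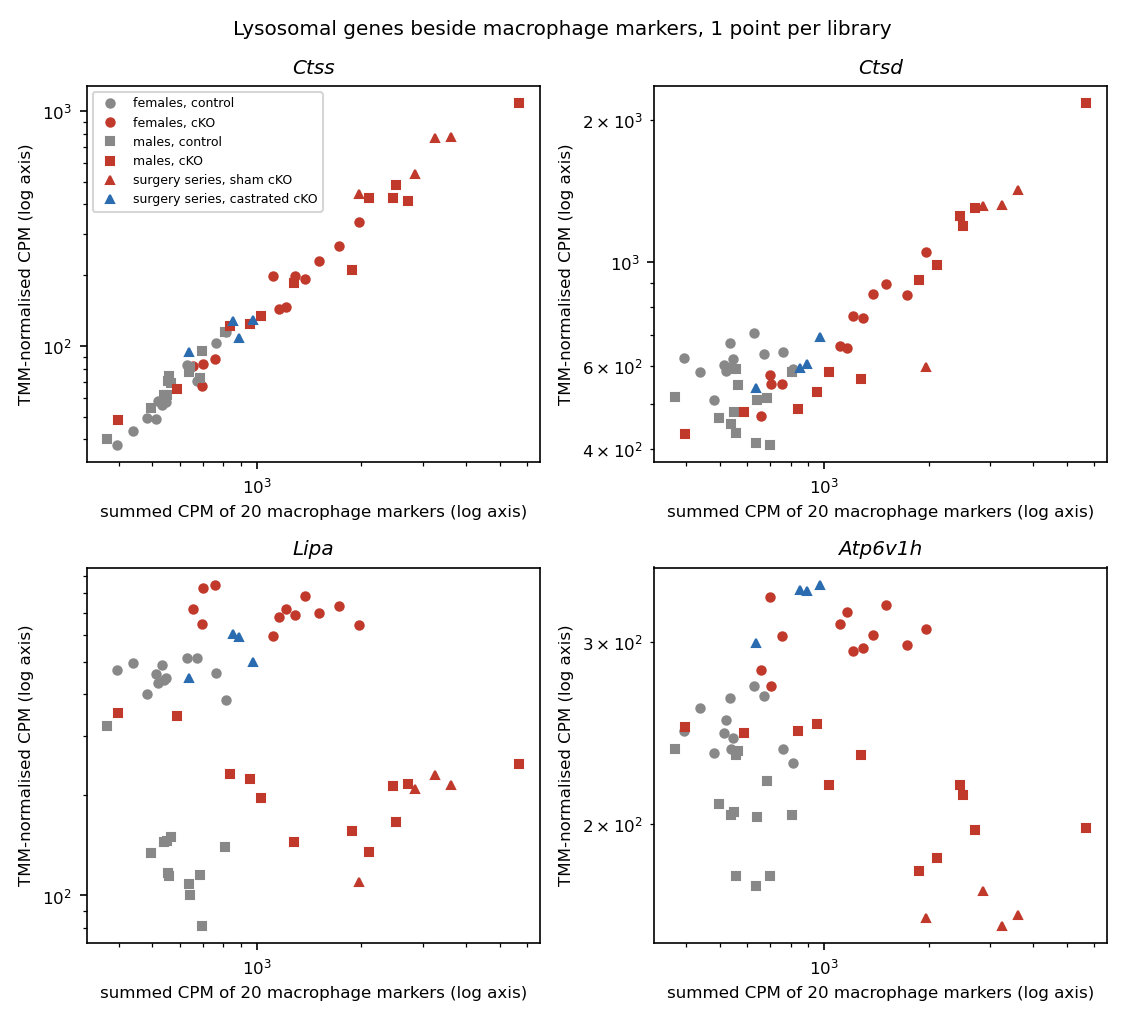
Normalised CPM of Ctss, Ctsd, Lipa and Atp6v1h (vertical axes, log scale) against the summed CPM of 20 macrophage markers (horizontal axes, log scale), 1 point per library, by sex or experiment (shape) and group (colour). Marker sums run from 371 to 5690 CPM, the library with the highest sum also has the highest Ctss (1080 CPM), and levels are not comparable between shapes since the tables were scaled separately.

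Cathepsin S (Ctss, chr3:95526786-95556403), a cysteine protease of antigen-presenting cells, had the largest log2 fold change upwards of the 44 in each of the 6 comparisons of genotype, and was called in all but that of males of 4 weeks. In females its level was 48.7, 59.8, 57.8 and 43.4 CPM in controls of 9 weeks and 198, 198, 67.4 and 144 CPM in cKO glands. All 4 cKO libraries lay above the controls, with replicate 3 close to them (log2 fold change 1.53 ± 0.35, adjusted p = 0.00174). At 6 weeks it was at 37.9, 70.7, 58 and 49.2 CPM in controls and 82.1, 87.8, 83.7 and 230 CPM in cKO glands (log2 fold change 1.17 ± 0.35, adjusted p = 0.0129). Here cKO replicate 4 stood far above the rest, and without it the call was lost (0.65, adjusted p = 0.119). At 12 weeks the controls held 82.5, 103, 56 and 115 CPM and the cKO glands 147, 336, 192 and 266 CPM (log2 fold change 1.4 ± 0.35, adjusted p = 0.00493).

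Males of 4 weeks had 69.2, 40.3, 54.3 and 61.6 CPM of Ctss in controls and 48.5, 124, 65.3 and 122 CPM in cKO glands, which overlap (log2 fold change 0.67 ± 0.4, adjusted p = 0.265). From 6 weeks on the groups were apart. At 6 weeks it was at 70.6, 74.3, 81.5 and 61.8 CPM in controls and 413, 427, 134 and 211 CPM in cKO glands (log2 fold change 2.04 ± 0.41, adjusted p = 0.000841). At 9 weeks it was at 115, 95.2, 73.3 and 77.4 CPM in controls and 185, 483, 425 and 1080 CPM in cKO glands (log2 fold change 2.59 ± 0.42, adjusted p = 8.36e-05). The 9-week rise was 1.67 with library numbers up to 24 (adjusted p = 0.0596) and 3.33 with those above 24 (adjusted p = 0.000289). After surgery, sham-operated glands held 445, 775, 765 and 539 CPM and castrated glands 93.9, 128, 108 and 129 CPM, a 5.5-fold difference with no overlap (log2 fold change -2.46 ± 0.2, adjusted p = 9.86e-06).

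Cathepsin L (Ctsl), a cysteine endopeptidase found in most cells, was called lower in cKO females of each age and higher in cKO males of 9 weeks. In females of 6 weeks it was at 296, 280, 245 and 406 CPM in controls and 94.7, 87.8, 92.6 and 152 CPM in cKO glands, 2.87-fold lower and apart in all libraries (log2 fold change -1.52 ± 0.2, adjusted p = 3.7e-06). The difference was smaller at 9 weeks (185, 230, 234 and 189 CPM in controls and 148, 157, 132 and 141 CPM in cKO glands, log2 fold change -0.54 ± 0.2, adjusted p = 0.0421) and at 12 weeks, where the groups overlapped (-0.62 ± 0.2, adjusted p = 0.026). In males of 4 weeks it also lay lower in cKO glands, with 157, 170, 148 and 142 CPM in controls and 119, 128, 116 and 100 CPM in cKO glands. These groups did not overlap, but the gene was not called (log2 fold change -0.41 ± 0.32, adjusted p = 0.403). At 6 weeks the groups overlapped and the value was 0.6 ± 0.32 (adjusted p = 0.203). In males of 9 weeks controls held 136, 180, 157 and 149 CPM and cKO glands 140, 288, 366 and 843 CPM (log2 fold change 1.4 ± 0.32, adjusted p = 0.00288). There cKO replicate 1 lay within the controls and replicate 4 far above the rest, and with library numbers up to 24 only the change was 0.44 (adjusted p = 0.44). Sham-operated glands held 279, 453, 518 and 533 CPM and castrated ones 168, 117, 122 and 142 CPM (log2 fold change -1.7 ± 0.21, adjusted p = 0.000115). Ctsl was the member with the largest difference between the sexes in the genotype effect: female minus male it was -2.1 ± 0.32 at 6 weeks (adjusted p = 0.00134) and -1.92 ± 0.48 at 9 weeks (adjusted p = 0.0227). At 6 weeks genotype coincided with library number range in males.

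Ctsd, the main aspartic protease of the lysosome, rose late. In males of 9 weeks controls were at 583, 409, 514 and 412 CPM and cKO glands at 564, 1190, 982 and 2170 CPM (log2 fold change 1.35 ± 0.27, adjusted p = 0.000836), with cKO replicate 1 inside the range of controls. At 6 weeks the change was 1.01 ± 0.27 (adjusted p = 0.00923), and in females of 12 weeks it was 0.43 ± 0.14 (adjusted p = 0.0304). Castrated glands were at 539, 596, 608 and 691 CPM and sham-operated ones at 598, 1420, 1320 and 1310 CPM (log2 fold change -0.93 ± 0.24, adjusted p = 0.00973), where sham replicate 1 fell among the castrated libraries. In females of 6 weeks Ctsd was at 624, 638, 586 and 508 CPM in controls and 470, 551, 551 and 898 CPM in cKO glands and was not called.

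Cathepsin A (Ctsa), a carboxypeptidase that also shields beta-galactosidase and neuraminidase, was called higher in the cKO at every age but 4 weeks. In females of 6 weeks it was at 154, 168, 151 and 155 CPM in controls and 191, 187, 205 and 242 CPM in cKO glands (log2 fold change 0.39 ± 0.07, adjusted p = 0.000109). At 12 weeks it was at 164, 170, 165 and 171 CPM in controls and 197, 232, 214 and 217 CPM in cKO glands (log2 fold change 0.36 ± 0.07, adjusted p = 0.000422). The 2 groups were apart at both ages, by a small margin. In males of 6 weeks controls held 221, 200, 213 and 213 CPM and cKO glands 329, 361, 252 and 320 CPM (log2 fold change 0.58 ± 0.13, adjusted p = 0.00208). The level at 9 weeks was 207, 209, 218 and 221 CPM in controls and 280, 381, 428 and 521 CPM in cKO glands (log2 fold change 0.91 ± 0.13, adjusted p = 1.71e-05). Of the members, Ctsa and Ctsz were the 2 that stayed called higher in males of 9 weeks with library numbers up to 24 only (0.67, adjusted p = 0.0103, for Ctsa). Its genotype effect at 9 weeks was smaller in females than in males by 0.64 ± 0.18 on the log2 scale (adjusted p = 0.0362), and by 0.41 without cKO replicate 4 of males (adjusted p = 0.0695). Castrated glands were lower, at 178, 186, 194 and 214 against 339, 291, 266 and 290 CPM (log2 fold change -0.62 ± 0.11, adjusted p = 0.00144).

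Cathepsin Z (Ctsz), a carboxypeptidase abundant in myeloid cells, was called higher at the same ages as Ctsa. At 9 weeks female controls held 134, 136, 138 and 125 CPM and cKO glands 196, 179, 165 and 172 CPM (log2 fold change 0.42 ± 0.11, adjusted p = 0.00473). Male controls were at 182, 191, 191 and 172 CPM at 6 weeks and cKO glands at 319, 342, 211 and 274 CPM (log2 fold change 0.64 ± 0.19, adjusted p = 0.0203). At 9 weeks it was at 182, 180, 171 and 168 CPM in controls and 224, 386, 368 and 647 CPM in cKO glands (log2 fold change 1.22 ± 0.19, adjusted p = 7.57e-05). Every cKO library lay above every control in these 3 comparisons. After castration the level was 173, 185, 201 and 242 CPM, against 326, 411, 364 and 374 CPM after sham surgery (log2 fold change -0.88 ± 0.13, adjusted p = 0.00044).

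Ctsb, a cysteine protease and the cathepsin with the highest level per length, was higher in cKO females of each age and in males of 9 weeks. Female controls held 1820, 1530, 2070 and 1650 CPM at 9 weeks and cKO glands 2250, 2520, 2560 and 2090 CPM (log2 fold change 0.41 ± 0.1, adjusted p = 0.00317). At 12 weeks the levels were 1900, 1760, 1740 and 1760 CPM in controls and 2610, 2670, 2570 and 2400 CPM in cKO glands, with no overlap (log2 fold change 0.52 ± 0.1, adjusted p = 0.000616). Males of 9 weeks had 1400, 1130, 1470 and 1210 CPM in controls and 1540, 2070, 1690 and 3120 CPM in cKO glands (log2 fold change 0.69 ± 0.18, adjusted p = 0.00734). Castrated (1770, 1840, 1820 and 1950 CPM) and sham-operated glands (1290, 2370, 2220 and 2120 CPM) overlapped, and Ctsb was called lower (-0.28, adjusted p = 0.0315) without sham replicate 1.

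The cathepsins did not all move one way. Ctsh, an aminopeptidase, was higher in cKO females of 6 weeks (153, 159, 141 and 143 CPM in controls, 186, 195, 197 and 189 CPM in cKO glands; log2 fold change 0.36 ± 0.06, adjusted p = 5.75e-05). In males it was 1 of the 2 members called higher at 4 weeks (192, 197, 167 and 175 CPM in controls and 240, 221, 235 and 260 CPM in cKO glands; log2 fold change 0.39 ± 0.1, adjusted p = 0.00692). This call was lost with a covariate for library number range (0.34, adjusted p = 0.0796). Ctso, a cysteine protease with a less well known role, was the member called lower most often. In females of 6 weeks it was at 150, 136, 152 and 116 CPM in controls and 85.1, 93.4, 98 and 104 CPM in cKO glands (log2 fold change -0.54 ± 0.09, adjusted p = 3.59e-05). The level at 9 weeks was 132, 120, 124 and 142 CPM in controls and 97.4, 89.8, 114 and 111 CPM in cKO glands (log2 fold change -0.33 ± 0.09, adjusted p = 0.00528). At 12 weeks it was at 156, 150, 159 and 141 CPM in controls and 101, 97.7, 111 and 108 CPM in cKO glands (log2 fold change -0.54 ± 0.09, adjusted p = 6.59e-05). The groups did not overlap at any of these ages.

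In males Ctso was at 87.3, 118, 90.1 and 95.7 CPM in controls of 4 weeks and 80.5, 76.3, 84.6 and 81.9 CPM in cKO glands (log2 fold change -0.27 ± 0.09, adjusted p = 0.0406). With a covariate for library number range the change was -0.25 (adjusted p = 0.204). At 9 weeks controls and cKO glands were at 82.8, 69.2, 73.5 and 79 CPM and at 57.1, 65.3, 61.3 and 55.6 CPM (log2 fold change -0.35 ± 0.09, adjusted p = 0.00872). It went the other way after castration, with 80.1, 98.6, 84.4 and 84 CPM against 40.5, 68, 65.2 and 62.7 CPM (log2 fold change 0.55 ± 0.16, adjusted p = 0.0167). Ctsf, another cysteine protease, was lower in cKO males of 9 weeks (480, 288, 319 and 274 CPM in controls, 261, 231, 215 and 237 CPM in cKO glands; log2 fold change -0.53 ± 0.15, adjusted p = 0.0131). Ctsc, which activates granule proteases of leukocytes, was called in 1 comparison, lower after castration (log2 fold change -0.6 ± 0.19, adjusted p = 0.0238).

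**Figure D3:**
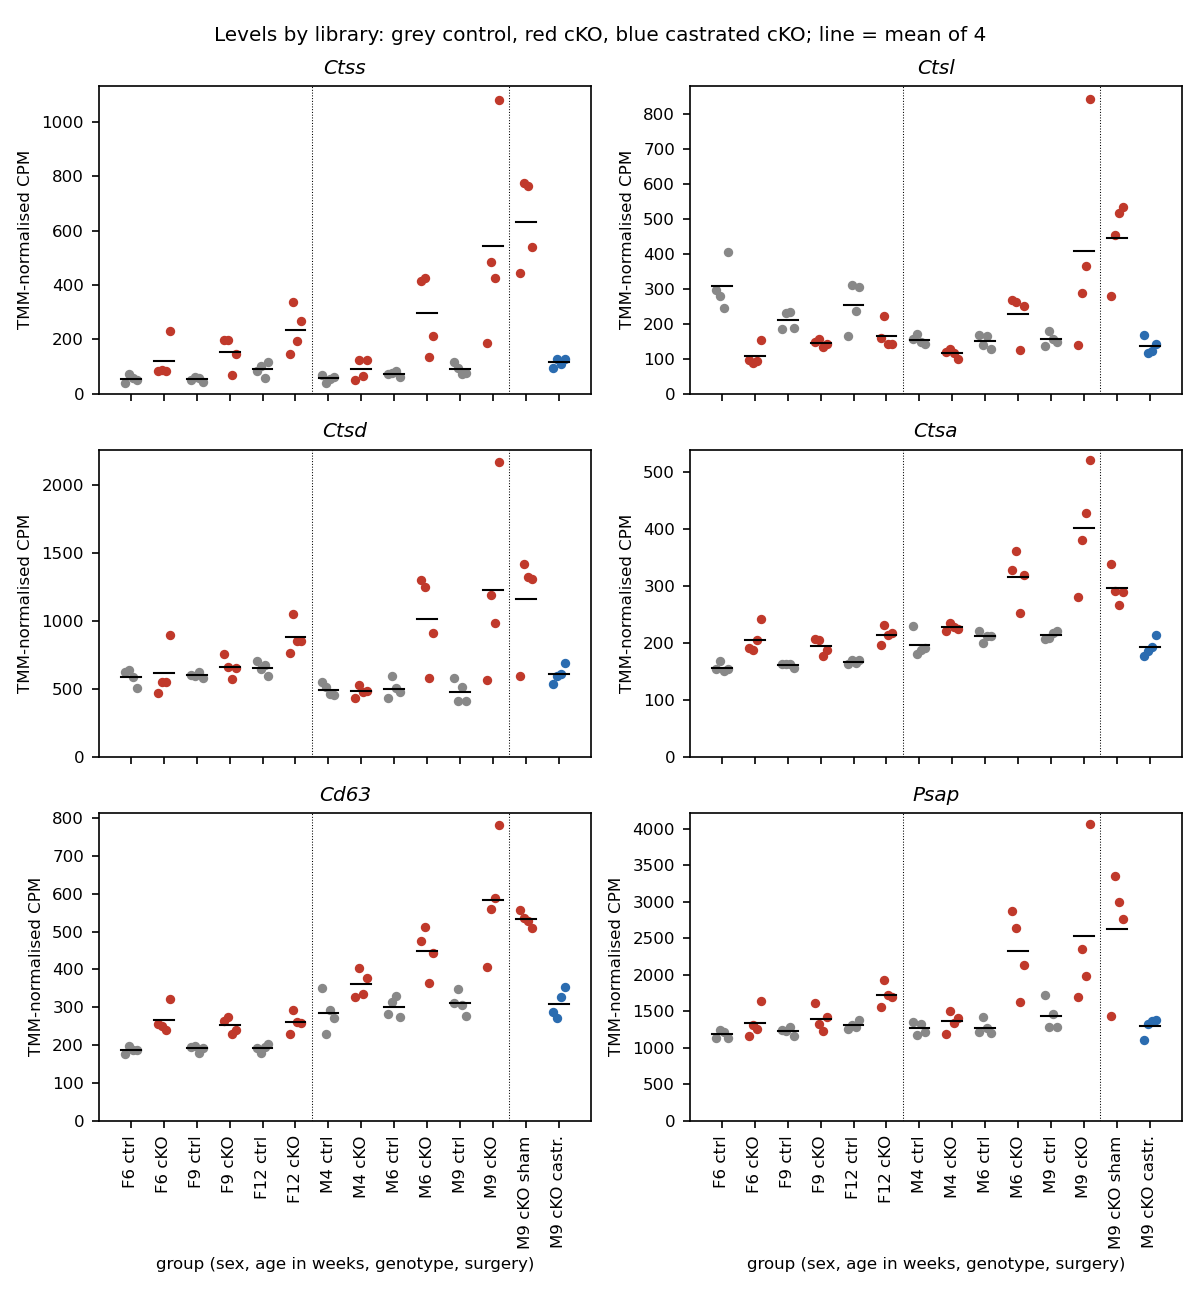
Normalised CPM (vertical axes, from 0) of 4 cathepsins, Cd63 and Psap in each library by group (horizontal axis; sex, age in weeks, genotype, surgery). Points are libraries and lines group means of 4, and dotted lines separate the 3 count tables, between which levels are not comparable. In Ctss, M9 cKO libraries run from 185 to 1080 CPM and castrated ones from 93.9 to 129 CPM.

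Among membrane proteins, Cd63 and Laptm5 were called higher in cKO glands of females of each age and of males of 6 and 9 weeks, and Lamp1 and Lamp2 in females of 12 weeks. Cd63, a tetraspanin of late endosomes and lysosomes, was at 175, 198, 187 and 188 CPM in control females of 6 weeks and 256, 249, 239 and 322 CPM in cKO glands (log2 fold change 0.51 ± 0.08, adjusted p = 5.6e-05). At 9 weeks it was at 196, 197, 180 and 191 CPM in controls and 264, 274, 228 and 241 CPM in cKO glands (log2 fold change 0.4 ± 0.08, adjusted p = 0.000812) and at 12 weeks at 193, 178, 195 and 202 CPM in controls and 228, 293, 262 and 257 CPM in cKO glands (log2 fold change 0.44 ± 0.08, adjusted p = 0.000459). The 3 female comparisons showed no overlap. In males controls held 282, 315, 330 and 274 CPM at 6 weeks and cKO glands 476, 512, 364 and 443 CPM (log2 fold change 0.58 ± 0.15, adjusted p = 0.00804). The level at 9 weeks was 310, 347, 306 and 278 CPM in controls and 407, 561, 588 and 783 CPM in cKO glands (log2 fold change 0.91 ± 0.15, adjusted p = 0.000127). Castration was followed by 287, 272, 326 and 354 CPM, against 556, 535, 529 and 509 CPM in sham-operated glands (log2 fold change -0.78 ± 0.12, adjusted p = 0.000438). These groups did not overlap.

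Laptm5, a lysosomal membrane protein of blood cells, was at 33.9, 42.3, 41.2 and 27.7 CPM in control females of 9 weeks and 73, 59.9, 42.8 and 63.7 CPM in cKO glands (log2 fold change 0.72 ± 0.18, adjusted p = 0.00287). In males it was at 38.4, 43.8, 44.7 and 38.9 CPM in controls and 148, 124, 66.1 and 93.5 CPM in cKO glands at 6 weeks (log2 fold change 1.38 ± 0.3, adjusted p = 0.00181) and at 69.2, 47.1, 45.9 and 40.9 CPM in controls and 71.1, 113, 85.1 and 223 CPM in cKO glands at 9 weeks (log2 fold change 1.28 ± 0.3, adjusted p = 0.00316). In females of 6 weeks the call for Laptm5 was lost without cKO replicate 4 (0.39, adjusted p = 0.103). In males the lowest cKO library of 9 weeks was just above the highest control. Castrated glands held 46.2, 59, 54.8 and 66.4 CPM and sham-operated ones 78, 178, 148 and 147 CPM (log2 fold change -1.28 ± 0.22, adjusted p = 0.00108). Lamp1, with 4 copies of CACGTG in the promoter shown above, was at 580, 554, 586 and 555 CPM in control females of 12 weeks and 632, 676, 656 and 647 CPM in cKO glands (log2 fold change 0.2 ± 0.05, adjusted p = 0.003). It was not called in any comparison of males, with 628, 550, 608 and 580 CPM in controls of 9 weeks and 580, 615, 477 and 750 CPM in cKO glands (log2 fold change 0.03 ± 0.1, adjusted p = 0.839). Lamp2, needed for autophagy, was likewise called higher in females of 12 weeks (log2 fold change 0.18 ± 0.05, adjusted p = 0.00962).

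Lipa, the lysosomal acid lipase that splits cholesteryl esters, had a positive log2 fold change in the cKO in all 6 comparisons and was the member with the smallest p in females of 6 and 12 weeks. Controls of 6 weeks held 472, 514, 430 and 400 CPM and cKO glands 717, 849, 828 and 699 CPM (log2 fold change 0.77 ± 0.09, adjusted p = 8.69e-07). At 9 weeks the levels were 460, 441, 448 and 496 CPM in controls and 689, 598, 648 and 680 CPM in cKO glands (log2 fold change 0.5 ± 0.09, adjusted p = 0.000184). At 12 weeks it was at 512, 463, 488 and 385 CPM in controls and 718, 642, 786 and 731 CPM in cKO glands (log2 fold change 0.64 ± 0.09, adjusted p = 1.74e-05). In each of the 3 ages all cKO libraries were above all controls. In males of 6 weeks it was at 117, 114, 100 and 145 CPM in controls and 216, 212, 196 and 156 CPM in cKO glands (log2 fold change 0.71 ± 0.25, adjusted p = 0.0433). The call was lost with a covariate for library number range (0.94, adjusted p = 0.0762). The changes at 4 weeks (log2 fold change 0.62 ± 0.24, adjusted p = 0.0815) and 9 weeks (log2 fold change 0.64 ± 0.25, adjusted p = 0.06) did not pass the threshold. At 4 weeks control replicate 2, at 321 CPM, stood far above the other controls (134 to 150 CPM).

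Lipa was higher after castration, from 110, 214, 229 and 208 CPM in sham-operated to 447, 605, 591 and 500 CPM in castrated glands, 2.81-fold (log2 fold change 1.49 ± 0.22, adjusted p = 0.000358). The groups were far apart. Without sham replicate 1 the change was 1.3 (adjusted p = 2.46e-05). Psap, whose saposins help the enzymes of sphingolipid breakdown, was called higher in males of 6 and 9 weeks and lower after castration. In males of 6 weeks controls held 1210, 1420, 1270 and 1200 CPM and cKO glands 2870, 2640, 1630 and 2140 CPM (log2 fold change 0.86 ± 0.2, adjusted p = 0.00279). At 9 weeks the levels were 1720, 1290, 1460 and 1290 CPM in controls and 1700, 2350, 1990 and 4070 CPM in cKO glands, with replicate 1 of the cKO among the controls (log2 fold change 0.81 ± 0.2, adjusted p = 0.00462). Castrated glands were at 1110, 1320, 1370 and 1380 CPM and sham-operated ones at 1430, 3350, 3000 and 2760 CPM (log2 fold change -1.02 ± 0.24, adjusted p = 0.0057). In females Psap was called at 12 weeks (log2 fold change 0.4 ± 0.09, adjusted p = 0.0032), with 1260, 1310, 1280 and 1380 CPM in controls and 1560, 1930, 1720 and 1700 CPM in cKO glands.

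Smpd1, the acid sphingomyelinase, was lower in cKO females of 6 weeks (59, 54.8, 57 and 55.9 CPM in controls, 46.7, 49.7, 48 and 43.2 CPM in cKO glands; log2 fold change -0.27 ± 0.07, adjusted p = 0.00339). It was also lower at 9 weeks in females (-0.19 ± 0.07, adjusted p = 0.0374) and in males (log2 fold change -0.37 ± 0.09, adjusted p = 0.00646). Asah1, the acid ceramidase, was called in no comparison of genotype or castration.

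Of the 6 glycosidases, 2 were called higher in females of 6 weeks and 0 at 9 and 12 weeks, against 14.2%, 14.6% and 9.11% of all genes. In males of 9 weeks 3 were higher and 1 lower, against 10.4% and 13.6%, so the lower count is near the background. Gla, the alpha-galactosidase A that removes galactose from glycolipids, rose in males of 9 weeks, from 15.2, 15.3, 15.2 and 16.5 CPM in controls to 17.8, 25.3, 24.8 and 46 CPM in cKO glands (log2 fold change 0.87 ± 0.2, adjusted p = 0.00228). All 4 cKO libraries were higher, replicate 1 by little and replicate 4 by far. It was 14.2, 15.4, 16.6 and 16.5 CPM in castrated and 23.4, 32, 34.7 and 29.6 CPM in sham-operated glands, with no overlap (log2 fold change -0.93 ± 0.14, adjusted p = 0.000364). Glb1, the beta-galactosidase used as a stain for senescent cells, was higher at the youngest age in both sexes: 46.8, 44, 47.8 and 48.6 CPM in controls and 65, 66.8, 55.1 and 69 CPM in cKO glands of females (log2 fold change 0.45 ± 0.1, adjusted p = 0.00163). In males of 4 weeks it was at 58.2, 50.8, 52.1 and 48.6 CPM in controls and 68.6, 65.9, 73.4 and 68.4 CPM in cKO glands (log2 fold change 0.4 ± 0.11, adjusted p = 0.0131). The male call was lost with a covariate for library number range (0.39, adjusted p = 0.0686).

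Hexa, a beta-hexosaminidase subunit and the glycosidase with the highest level per length in controls, was at 166, 167, 149 and 128 CPM in control males of 9 weeks and 171, 200, 166 and 294 CPM in cKO glands (log2 fold change 0.45 ± 0.16, adjusted p = 0.0438). These groups overlapped. Neu1, a sialidase, was higher in the same comparison (log2 fold change 0.32 ± 0.08, adjusted p = 0.00714). Gaa, the acid alpha-glucosidase that breaks down glycogen, was lower (log2 fold change -0.34 ± 0.1, adjusted p = 0.013). Gusb, the beta-glucuronidase, was higher in females of 6 weeks (log2 fold change 0.17 ± 0.06, adjusted p = 0.0378).

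Grn, the progranulin gene, whose product is cut into granulins in the lysosome, was higher in cKO males. At 6 weeks controls held 277, 296, 288 and 284 CPM and cKO glands 445, 422, 374 and 415 CPM (log2 fold change 0.53 ± 0.11, adjusted p = 0.000915). At 9 weeks it was at 292, 276, 279 and 268 CPM in controls and 321, 430, 433 and 550 CPM in cKO glands (log2 fold change 0.64 ± 0.11, adjusted p = 0.000158). No cKO library overlapped with the controls at these ages. Grn was not called in females of 6 weeks, at 237, 234, 254 and 222 CPM in controls and 245, 235, 273 and 294 CPM in cKO glands (log2 fold change 0.14 ± 0.07, adjusted p = 0.118). The effect of genotype at 6 weeks differed between the sexes (-0.37 ± 0.11, female minus male, adjusted p = 0.0432), an age at which genotype coincided with library number range in males. After castration Grn was at 219, 229, 252 and 279 CPM, against 323, 397, 341 and 380 CPM (log2 fold change -0.56 ± 0.12, adjusted p = 0.00373). Tpp1, a tripeptidyl peptidase, was higher in cKO males of 9 weeks (log2 fold change 0.35 ± 0.09, adjusted p = 0.00535).

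In females, 3 of the 16 pump genes were called higher and 2 lower at 6 weeks, 5 and 1 at 9 weeks and 5 and 1 at 12 weeks, with log2 fold changes of -0.3 to 0.41. The shares of all genes were 14.2% and 19.1%, 14.6% and 20%, and 9.11% and 16%, so at 6 weeks the counts were near the background. In males the calls were 0 higher and 1 lower at 4 weeks, 0 and 0 at 6 weeks and 2 and 0 at 9 weeks, against 6.29% and 12.9%, 8.19% and 11.9%, and 10.4% and 13.6% of all genes. Atp6v1h, a regulatory V1 subunit that permits ATP hydrolysis in the assembled pump, was called higher at each female age. It was at 245, 236, 242 and 259 CPM in control females of 9 weeks and 296, 312, 332 and 321 CPM in cKO glands (log2 fold change 0.36 ± 0.06, adjusted p = 0.000109), with no overlap. At 6 and 12 weeks it rose by 0.25 ± 0.06 (adjusted p = 0.00392) and 0.27 ± 0.06 (adjusted p = 0.0029), again without overlap. In males of 9 weeks controls held 204, 178, 220 and 174 CPM and cKO glands 233, 213, 185 and 198 CPM (log2 fold change 0.1 ± 0.09, adjusted p = 0.493).

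Other V1 subunits were split. Atp6v1b2, the widely used form of the nucleotide-binding B subunit, was at 135, 126, 142 and 148 CPM in control females of 6 weeks and 115, 118, 113 and 120 CPM in cKO glands (log2 fold change -0.25 ± 0.04, adjusted p = 0.000174). At 12 weeks it was at 148, 149, 154 and 147 CPM in controls and 128, 134, 130 and 131 CPM in cKO glands (log2 fold change -0.2 ± 0.04, adjusted p = 0.00247). It was lower in the cKO at both ages, at which Atp6v1h was higher. Atp6v1c1, a subunit that links V1 to V0, was at 76.8, 73.6, 75.2 and 72.6 CPM in controls of 12 weeks and 80.5, 86.9, 84.9 and 85 CPM in cKO glands (log2 fold change 0.18 ± 0.03, adjusted p = 0.000538). Atp6v1f was the pump gene with the clearest change in males: 110, 129, 112 and 111 CPM in controls of 9 weeks and 134, 162, 164 and 186 CPM in cKO glands (log2 fold change 0.48 ± 0.09, adjusted p = 0.000666). Atp6v1g1, a stalk subunit, was higher in females of 12 weeks (118, 101, 124 and 99.7 CPM in controls and 144, 161, 150 and 131 CPM in cKO glands; log2 fold change 0.41 ± 0.1, adjusted p = 0.00451).

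In V0, the a1 subunit Atp6v0a1 was lower in cKO males of 4 weeks (141, 142, 136 and 141 CPM in controls, 118, 116, 131 and 107 CPM in cKO glands; log2 fold change -0.25 ± 0.08, adjusted p = 0.0351). With a covariate for library number range the change was -0.19 (adjusted p = 0.246). Atp6v0b, a proton-carrying subunit of the rotor ring, was at 144, 176, 159 and 147 CPM in control males of 9 weeks and 181, 191, 183 and 221 CPM in cKO glands (log2 fold change 0.31 ± 0.1, adjusted p = 0.0262). Atp6v0a2 was lower in females of 6 weeks (log2 fold change -0.3 ± 0.09, adjusted p = 0.0107), and Atp6v0d1, which couples the sectors, was higher at all 3 female ages (0.16 to 0.18). The accessory gene Atp6ap1 did not pass the test in any comparison, for instance at 300, 261, 273 and 256 CPM in control females of 12 weeks and 277, 279, 271 and 265 CPM in cKO glands.

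The largest log2 fold changes of the pump were those after castration. Atp6v1h was at 162, 163, 159 and 172 CPM in sham-operated and 299, 337, 336 and 341 CPM in castrated glands, 2-fold higher with no overlap (log2 fold change 1 ± 0.1, adjusted p = 2.74e-05). Atp6v1e1, the stalk subunit E, rose from 131, 178, 175 and 209 to 317, 303, 307 and 335 CPM (log2 fold change 0.87 ± 0.14, adjusted p = 0.000651). Exons of Atp6v1h and Atp6v1e1 overlap Rgs20 and Slc25a18 on the opposite strand, whose part in these counts was not tested. The membrane subunits Atp6v0a2 (0.59 ± 0.14, adjusted p = 0.0052) and Atp6v0a1 (0.38 ± 0.11, adjusted p = 0.0162) rose too. Atp6v1b2 fell instead, with 94.4, 179, 193 and 161 CPM in sham-operated and 99.1, 113, 115 and 108 CPM in castrated glands (log2 fold change -0.53 ± 0.19, adjusted p = 0.0451), where sham replicate 1 was the lowest of all 8. Without that library the change was -0.7 (adjusted p = 0.000192).

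**Figure D4:**
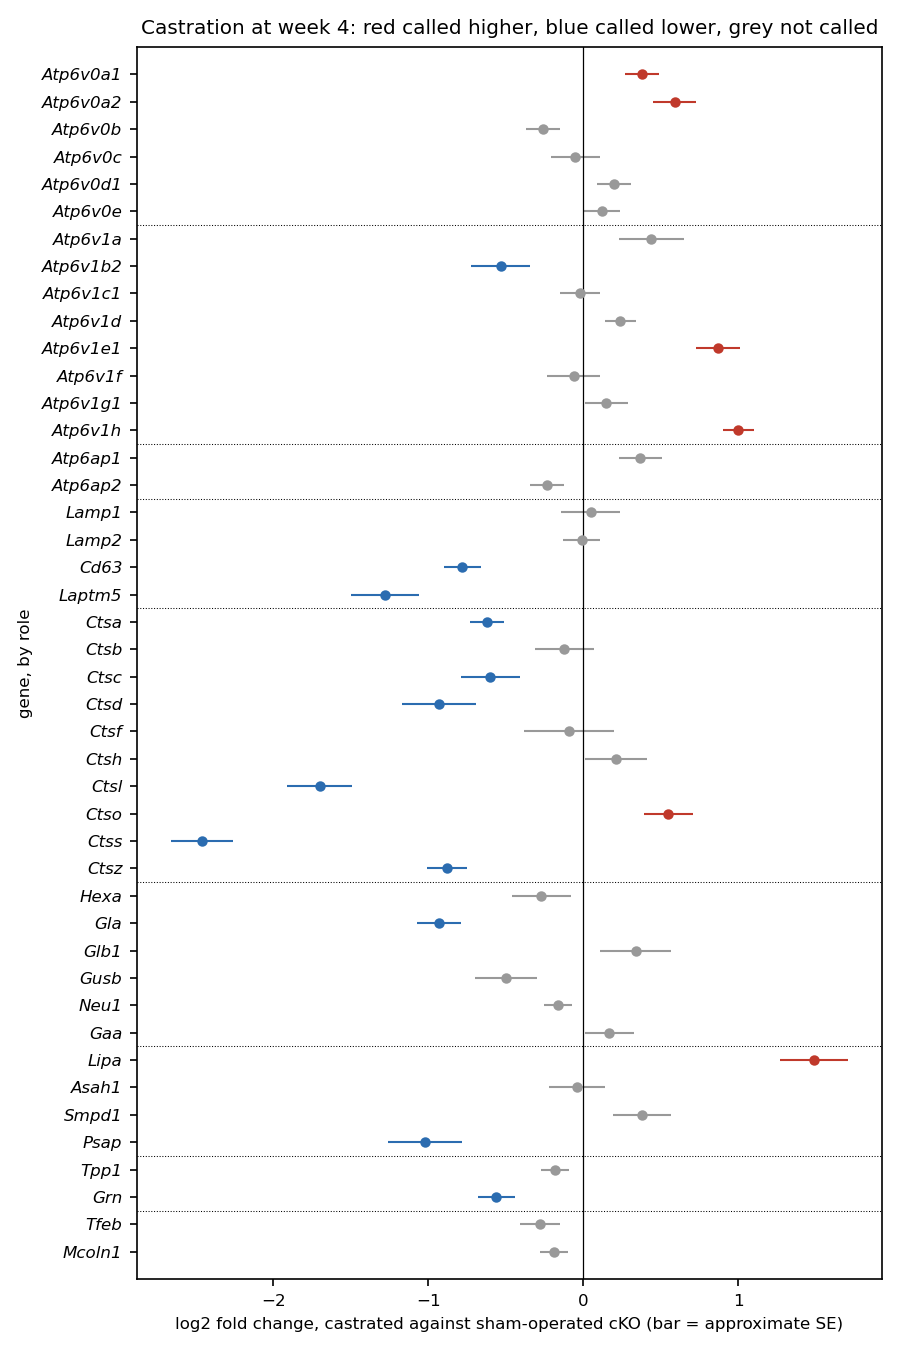
Log2 fold change (horizontal axis) of the 44 genes (vertical axis, by role) in castrated against sham-operated cKO males, with bars of 1 approximate standard error, 4 libraries per group. Lipa (1.49), Atp6v1h (1) and Atp6v1e1 (0.87) lie farthest to the right, and Ctss (-2.46), Ctsl (-1.7) and Laptm5 (-1.28) farthest to the left.

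Tfeb, the transcription factor, was at 18.9, 17.4, 17.9 and 17.7 CPM in control females of 12 weeks and 21.4, 25.8, 22.3 and 24.6 CPM in cKO glands, higher in every library (log2 fold change 0.39 ± 0.08, adjusted p = 0.001). In the other comparisons of genotype it did not pass the test, for instance in males of 9 weeks at 27.3, 33, 31.7 and 27.6 CPM in controls and 31.2, 31.8, 42.2 and 51.8 CPM in cKO glands (log2 fold change 0.39 ± 0.17, adjusted p = 0.1). Mcoln1, a calcium and iron channel of the lysosomal membrane, was at 62.3, 65.2, 76 and 74.6 CPM in controls of the same age and 76.1, 70.5, 75 and 79.7 CPM in cKO glands (log2 fold change 0.11 ± 0.1, adjusted p = 0.431).

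**Figure D5:**
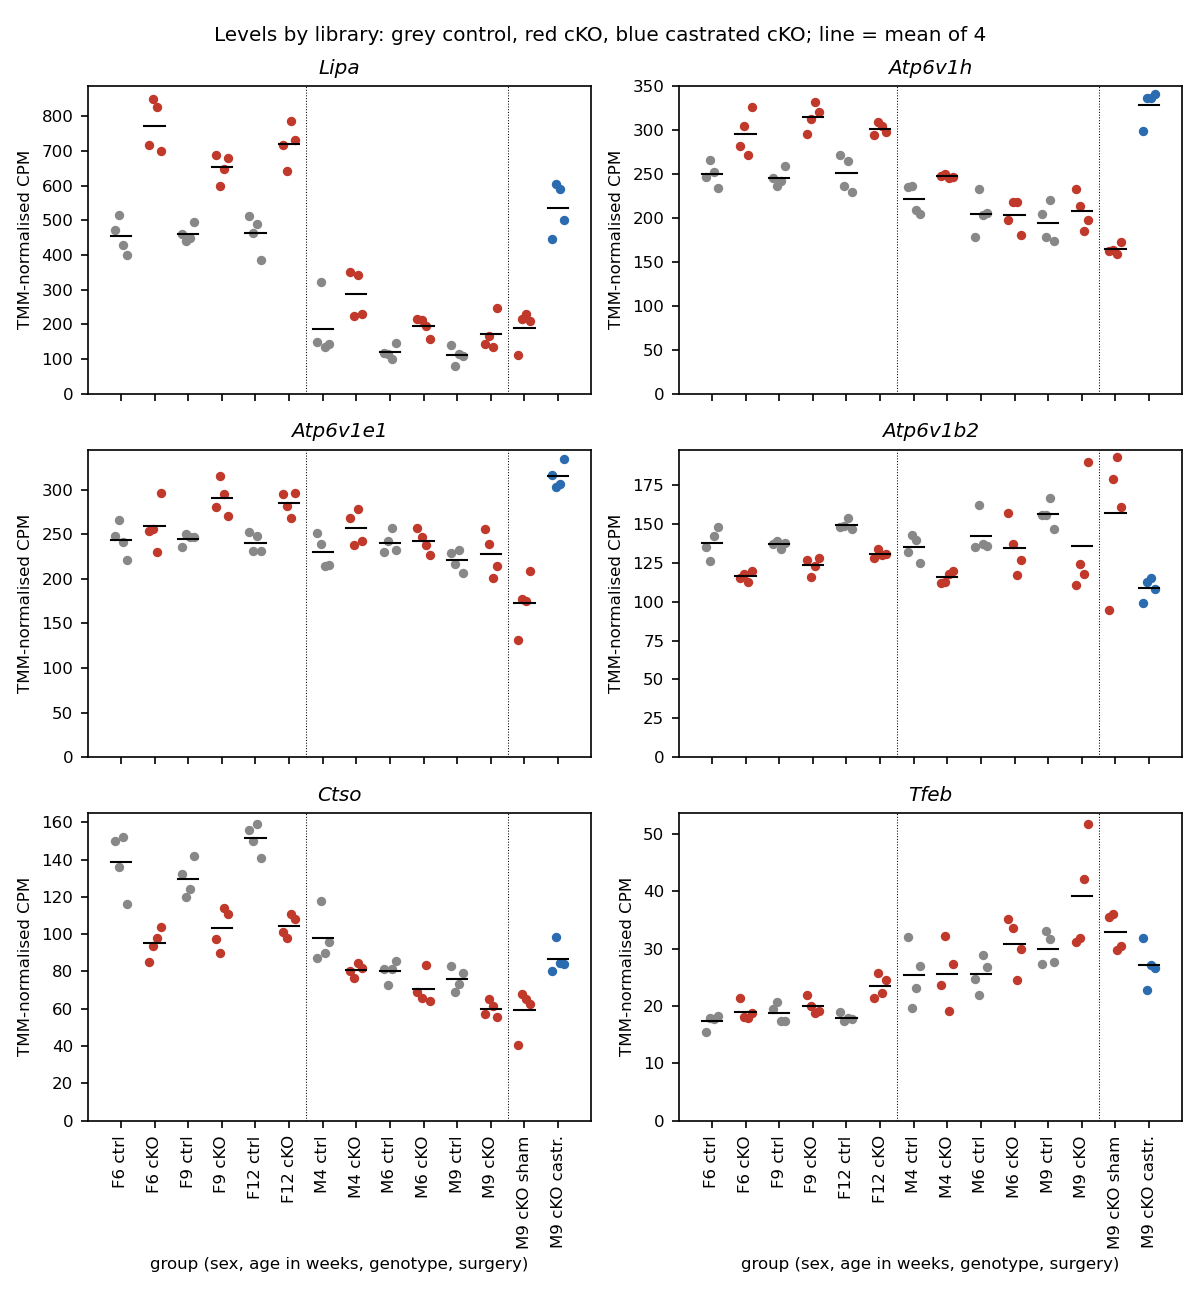
Normalised CPM (vertical axes, from 0) of Lipa, 3 pump subunits, Ctso and Tfeb in each library by group (horizontal axis). Points are libraries and lines group means of 4, and dotted lines separate the count tables. Castrated cKO glands lie above sham-operated ones for Lipa (447 to 605 against 110 to 229 CPM) and Atp6v1h (299 to 341 against 159 to 172 CPM).

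With age, few members were called in control glands and more in cKO glands, and this difference was tested only as the interaction below. Among control females from 6 to 12 weeks 0 members were called higher and 0 lower by edgeR, against 0.0912% and 0% of all genes (4 higher and 1 lower at an unadjusted p under 0.05, 0 and 0 by DESeq2). Among control males from 4 to 9 weeks 0 were higher, against 0.913% (0 at an unadjusted p under 0.05 and 0 by DESeq2), and 1, Ctso, was lower, against 2.22% (-0.36 ± 0.09, adjusted p = 0.0331). That call was lost without any one of 5 libraries, control replicates 2 and 4 of 4 weeks and 2, 3 and 4 of 9 weeks, and without control replicate 1 of 9 weeks 2 members were lower. In cKO females 9 members rose from 6 to 12 weeks, against 6.03%, and 0 fell, against 3.9% (0 at an unadjusted p under 0.05 and 0 by DESeq2). They were Ctsl, Laptm5, Ctsd, Psap, Tfeb, Lamp1, Lamp2, Atp6v1b2 and Atp6v1c1, with log2 fold changes of 0.14 to 0.64. This count rested on single libraries, and calls over all genes in these fits are not given here. It was 16 without cKO replicate 4 of 6 weeks, and 2, 4 and 1 without cKO replicates 1, 2 and 3 of that age. Without cKO replicate 2 of 12 weeks it was 0. That library had the highest sums of liver (356 CPM) and macrophage markers (1970 CPM) of its group, whose part was not tested.

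In cKO males 21 members rose (47.7%) and 8 fell (18.2%) from 4 to 9 weeks, against 20.8% and 20.9% of all genes. The count of falls is thus near the background. Ctss went up most (2.6 ± 0.42, adjusted p = 5.58e-05), followed by Ctsl (1.82 ± 0.33, adjusted p = 0.000166) and Ctsd (1.35 ± 0.27, adjusted p = 0.000461). The members that fell were Ctsf (-0.89 ± 0.15), Lipa (-0.73 ± 0.25), Atp6v1a (-0.6 ± 0.15), Glb1 (-0.57 ± 0.11), Ctso (-0.43 ± 0.09), Ctsh (-0.39 ± 0.1), Smpd1 (-0.28 ± 0.09) and Atp6v1h (-0.25 ± 0.09). Without cKO replicate 3 of either age, 5 were lower. In control males over these ages Lipa changed by -0.75, which was not called, with control replicate 2 of 4 weeks at 321 CPM. The fall of Ctso in control males (-0.36) was called. Over the same ages 15 of 20 macrophage markers were called higher and 0 lower in cKO males, and 6 of 10 cortex markers lower and 0 higher. The cortex markers summed to 51100 to 64000 CPM at 4 weeks and 39000 to 57800 CPM at 9 weeks. In cKO females from 6 to 12 weeks 4 of 20 macrophage markers were higher and 0 lower. In the interaction from 4 to 9 weeks described next, 6 of the 20 were higher and 0 lower. The part of these markers in the changes with age was not tested.

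Whether the effect of genotype changed with age was tested as an interaction. The test gives the direction in which the log2 fold change by genotype moved, and not whether its size grew. From 4 to 9 weeks in males it moved upwards for 4 members, against 2.94% of all genes. Downward moves were called for 0, against 1.97% (5 at an unadjusted p under 0.05 and 2 by DESeq2). The 4 that moved upwards were Ctsl (1.81 ± 0.45, adjusted p = 0.0262), which turned from negative to positive, Ctsa (0.71 ± 0.18, adjusted p = 0.0282), Ctsd (1.4 ± 0.38, adjusted p = 0.0369) and Ctsz (0.98 ± 0.27, adjusted p = 0.0407). For Ctss the difference was 1.92 ± 0.57 (adjusted p = 0.0504). A covariate for library number range left 0 of these calls, with values of 0.61 to 1.33 for the same 4 genes and adjusted p of 0.139 or more. Over all 17086 genes it left 10 upwards and 3 downwards, where the main fit called 503 and 337. Without cKO replicate 1 of 9 weeks 11 members were called, and without control replicate 1 of 9 weeks or cKO replicate 3 or 4 of 4 weeks 0 were. Without control replicate 4 of 4 weeks or cKO replicate 3 or 4 of 9 weeks 1 was called, and 2 without control replicate 3 or cKO replicate 1 of 4 weeks, control replicate 3 or 4 or cKO replicate 2 of 9 weeks. A downward move was called for 4 members without cKO replicate 1 of 9 weeks, 3 without control replicate 1 of 4 weeks, 2 without control replicate 2 of 9 weeks and 1 without cKO replicate 1 of 4 weeks or cKO replicate 4 of 9 weeks.

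From 4 to 6 weeks in males 0 members were called in either direction, against 0.00585% and 0% of all genes (6 upwards and 0 downwards at an unadjusted p under 0.05, 0 and 0 by DESeq2). From 6 to 12 weeks in females 0 were called as well, against 0.316% and 0.00536% of all genes (5 and 1 at an unadjusted p under 0.05, 1 and 0 by DESeq2). The smallest p in females belonged to Atp6v1c1, Ctsl and Atp6v0a2, with differences of 0.17 ± 0.05, 0.9 ± 0.28 and 0.36 ± 0.12 (adjusted p = 0.166, 0.211 and 0.264). Ctsl and Atp6v0a2 were lower in cKO glands at 6 weeks, so their upward difference is towards a smaller effect.

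Between the sexes the genotype effect was lower in females for 2 members at 6 weeks, Ctsl and Grn, and for 2 at 9 weeks, Ctsl and Ctsa. That is 4.55% at each age, against 5.08% and 5.39% of all genes, so these counts are near the background. In males of 6 weeks genotype coincided with library number range, so the 2 cannot be told apart in the 6-week difference. It was higher for 0 members at each age, against 2.55% and 3.29% (2 and 1 at an unadjusted p under 0.05, 0 and 0 by DESeq2). The sexes were counted in separate tables, so the test takes the difference of effects and not of levels. Without cKO replicate 4 of females or cKO replicate 3 of males, 5 members were lower at 6 weeks, and without cKO replicate 1 of males 7 were at 9 weeks, while 1 was left at each age without any one of 9 and of 13 other libraries. Without cKO replicate 4 of males, 1 member was also higher at 9 weeks. Ctsl was called in each fit that left out 1 cKO library, with values of -2.34 to -2.02 at 6 weeks and -2.2 to -1.21 at 9 weeks, the last without cKO replicate 4 of males.

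Of a list of 55 other lysosomal genes, 51 were tested. At 12 weeks in females 11 were higher and 3 lower, in males of 9 weeks 14 and 3, and after castration 8 were higher and 18 lower, against 9.11% and 16%, 10.4% and 13.6%, and 19.8% and 23.8% of all genes. First by p in males of 9 weeks and after castration was Atp6v0d2, a V0 subunit of osteoclasts and macrophages, at 0.324, 0.43, 1.36 and 0.264 CPM in control males of 9 weeks and 16.7, 87.1, 101 and 221 CPM in cKO glands. It was at 118, 129, 124 and 94.9 CPM in sham-operated and 2.62, 4.06, 3.33 and 2.51 CPM in castrated glands (log2 fold change -5.21 ± 0.19, adjusted p = 1.19e-07). Acp5, an acid phosphatase of the same cells, went from 17.6, 16.7, 16.2 and 14.9 CPM to 34.7, 86.7, 119 and 173 CPM in males of 9 weeks (2.66 ± 0.37, adjusted p = 1.77e-05) and was lower after castration (-2.98 ± 0.21, adjusted p = 4.35e-06). Tcirg1, the a3 subunit of the pump, rose in males of 9 weeks (1.09 ± 0.16, adjusted p = 3.58e-05). In females Sort1, a sorting receptor, fell at 6 weeks (-0.68 ± 0.11, adjusted p = 3.33e-05) and 9 weeks (-0.88 ± 0.11, adjusted p = 1.7e-06).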

How the data were processed

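RNA of whole adrenal glands was measured in 56 libraries. The authors deposited whole-number read counts per gene in 3 tables (24 female, 24 male and 8 surgery libraries). The tools named, per the submitters' processing notes, were cutadapt 1.16, STAR 2.7.6a, featureCounts, RSEM 1.6.3 and DESeq2 1.30.1, with the GRCm38 build; the strand setting of the counting was not given in the sources used here.

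Each table was fitted with edgeR 4.0.16 (R 4.3.3; filterByExpr with a minimum count of 10, TMM scaling, quasi-likelihood test, Benjamini-Hochberg adjustment over all genes tested, threshold 0.05), with all groups of a table in 1 fit. Sex differences were fitted on both tables jointly. Standard errors are approximate, from the log2 fold change and the F statistic. Levels are TMM-normalised CPM, divided by exon length (GENCODE M21) where levels of different genes are compared. The members and lists were chosen with earlier results of these data known. All 44 members may be named. Per-library values are given for called members whose groups do not overlap, at most 8 a comparison by p, and for the most abundant member of each role. At most 4 other lysosomal genes a comparison are named, by smallest p. Members shown outside that rule were chosen after their values were seen. Alternatives were DESeq2 1.42.0, other scaling and filters, 2 groups only, a replicate block, the library number range or reporter allele as a covariate, and each library left out. Fits within a library number range were added after seeing the data. In the 6 genotype comparisons the labels' replicate numbers did not pair the samples, and in the surgery experiment the sham-operated samples all carry number 1, so none were paired. None of 84 pairs of replicates was alike within sampling noise.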

Additional observations from a re-analysis of the deposited data

Results flagged for a closer look

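In groups of 4, a library was marked where its gap to the nearest other, as a share of the group's range, was above Dixon's critical value. This held for 25 of 378 sets of values (27 members in 14 groups, 6.61%), and chance gives about 1 in 20. Sham replicate 1 was apart for 6 members: it was lowest for Atp6ap1 (149 CPM), Atp6v1c1 (62.1 CPM), Glb1 (21.6 CPM) and Lamp1 (385 CPM) and highest for Atp6v0a1 (140 CPM) and Atp6v1g1 (195 CPM). In females of 6 weeks cKO replicate 4 was highest for Atp6v0b (133 CPM), Ctsl (152 CPM), Ctss (230 CPM) and Ctsz (248 CPM), and control replicate 1 was lowest for Tfeb (15.4 CPM). In females of 9 weeks cKO replicate 2 was highest for Atp6v0b (123 CPM) and lowest for Lamp1 (575 CPM), control replicate 3 was lowest for Lamp1 (553 CPM) and control replicate 4 lowest for Ctsa (157 CPM). At 12 weeks control replicate 1 was highest for Ctsb (1900 CPM).

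In males of 4 weeks control replicate 1 was highest for Atp6v1f (124 CPM), control replicate 2 highest for Lipa (321 CPM) and control replicate 3 lowest for Atp6v0a1 (136 CPM). At 6 weeks control replicate 2 was highest for Atp6v1b2 (162 CPM) and cKO replicate 3 lowest for Ctsl (124 CPM). At 9 weeks control replicate 2 was highest for Atp6v1f (129 CPM), control replicate 4 highest for Gla (16.5 CPM) and cKO replicate 4 highest for Atp6v1b2 (190 CPM). Among castrated males replicate 1 was lowest for Atp6v1h (299 CPM).

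The effect of genotype differed by edgeR's interaction test for 8 pairings of member and contrast. Between 9 and 4 weeks in males the log2 difference was 1.81 for Ctsl, 1.4 for Ctsd, 0.98 for Ctsz and 0.71 for Ctsa. Female minus male it was -2.1 for Ctsl and -0.37 for Grn at 6 weeks and -1.92 for Ctsl and -0.64 for Ctsa at 9 weeks.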

How the results depend on the processing

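Over the alternatives, 11352 log2 fold changes of members were recomputed: 10374 kept direction and side of the threshold, 284 lost the call, 174 gained one, 520 that were not called turned sign and 0 called ones did. Counts of members that moved by over 1.5 times are given here, and the cause was not tested. Calls over all genes are set beside them for library number ranges only. With relative log expression scaling the lower counts were 2 in females of 9 weeks and 0 in males of 4 weeks. Without a filter on low counts they were 1 and 0, the rise with age in cKO females held for 3, the fall in control males for 0, and the lower count between sexes at 6 weeks was 1. With the 2 groups only, lower counts at 9 weeks were 2 in females and 2 in males. With a CPM filter, 19 were lower after castration, 1 effect moved downwards from 4 to 9 weeks, and 4 and 5 were lower between sexes at 6 and 9 weeks. With DESeq2, 1 effect moved upwards from 6 to 12 weeks in females and 2 moved downwards from 4 to 9 weeks in males. By the same test 2 members fell in control males, and 6 were lower between sexes at 6 weeks.

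A covariate for library number range left 0 higher and 0 lower at 4 weeks and 6 higher at 6 weeks. It left 0 effects that moved upwards from 4 to 9 weeks and 0 falls in control males. Over all 17086 genes it left 230 and 1471 at 4 weeks, 488 higher at 6 weeks, 10 upward moves and 358 falls. Chosen after seeing the data, numbers up to 24 only gave 2 higher and 2 lower at 9 weeks, against 225 and 826 of 17464 genes. Numbers above 24 gave 0 lower at 9 weeks, against 1532 of 17580 genes. At 4 weeks numbers up to 24 leave only control replicate 1 beside the cKO libraries, so no count is given there. Same-numbered samples correlated by -0.34 to 0.16, so the numbers do not pair them. A replicate block left 0 lower at 4 weeks and 2 effects that moved upwards and 1 that moved downwards from 4 to 9 weeks.

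Leaving out 1 library at a time gave lower counts of 1 to 3 in females of 9 weeks, 0 to 1 in males of 4 weeks and 1 to 5 in males of 9 weeks, and higher counts of 2 to 6 in males of 4 weeks. From 4 to 9 weeks 0 to 11 effects moved upwards and 0 to 4 downwards. With age, 0 to 16 rose in cKO females, 0 to 2 fell in control males and 5 to 11 fell in cKO males. Between sexes 1 to 5 were lower at 6 weeks, and 1 to 7 lower and 0 to 1 higher at 9 weeks. Depth in males, 12431963 to 35531016 counts, was below that in females, 35694264 to 51604620 counts.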
